A study of Mus musculus with 6 samples.

Results

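The late cornified envelope (Lce) genes and the single genes that lie between and beside them were examined as a set of 30 genes, out of 55487 in the deposited tables, in epidermis of newborn mice with and without Znf750. The set was named gene by gene from gene family and map position on chromosome 3. It holds 14 Lce1 genes, 6 Lce3 genes, Lce6a, and 9 neighbours of other families (Crct1, Kprp, Lelp1, Prr9, Smcp, 2310050C09Rik, Pglyrp3, Pglyrp4 and Lor). All 30 were found in the tables by Ensembl identifier, and 26 were expressed highly enough to be tested.

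Messenger RNA was sequenced from back skin epidermis of pups at postnatal day 0, in 3 libraries labelled Control and 3 labelled Znf750 cKO, a conditional knockout written Znf750_cKO below. The labels give age, tissue and these names. The sources used here give neither the strain nor the floxed allele, the Cre driver or the genotype of the controls. The labels do not say whether replicates are separate pups, so p-values measure the spread between these libraries, which may be partly technical. Zfp750, the mouse gene for ZNF750, fell, with 44.8, 32.0 and 34.9 FPKM in Control replicates 1 to 3 against 0.99, 0.83 and 1.47 FPKM in those of Znf750_cKO (limma adjusted p = 4.62e-05). Keratinocyte markers were abundant in every library, with 0 of 6 called changed and their summed FPKM at 27362 to 34151 in Control and 32271 to 41370 in Znf750_cKO libraries. Among them Krt14 was higher in every Znf750_cKO library, at 6118 to 7473 FPKM against 5073 to 5617 FPKM in Control (limma adjusted p = 0.14). The other markers overlapped between groups.

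The cornified envelope is the protein shell that replaces the plasma membrane of a keratinocyte as it becomes a dead surface cell. Transglutaminases cross-link loricrin (Lor), involucrin, small proline-rich proteins and the small cysteine-rich Lce proteins into it, and the Lce proteins are among the last to be made. Most of these precursors are encoded in 1 stretch of chromosome 3, the epidermal differentiation complex, which also holds genes of the S100 and filaggrin families. ZNF750 is a nuclear zinc finger protein that promotes terminal differentiation in keratinocytes.

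A few upstream sequences are shown to set the Lce1 genes, the largest class of the set, beside each other and beside an Lce3 gene and loricrin. They are the 80 bases before the RefSeq transcription start, 5′ to 3′ on the coding strand, from RefSeq on GRCm38.p6. That table held 25 of the 30 genes and lacked Lce1f, Crct1, Kprp, Pglyrp3 and Pglyrp4. The windows are chr3:92778900-92778979 (Lce1i), chr3:92765066-92765145 (Lce1h), chr3:92752339-92752418 (Lce1g), chr3:92648308-92648387 (Lce1a1), chr3:92807892-92807971 (Lce1k), chr3:93019062-93019141 (Lce1m) and chr3:92083143-92083222 (Lor), all on the minus strand, and chr3:92944406-92944485 (Lce3c) on the plus strand. Capitals mark the words ATAAAA and CTGTCTCAC, both picked after these sequences were seen.
Lce1i: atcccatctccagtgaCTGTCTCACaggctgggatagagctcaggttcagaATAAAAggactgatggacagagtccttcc
Lce1h: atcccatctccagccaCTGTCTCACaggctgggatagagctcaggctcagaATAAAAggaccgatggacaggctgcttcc
Lce1g: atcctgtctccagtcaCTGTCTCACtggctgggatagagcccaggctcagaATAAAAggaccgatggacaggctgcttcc
Lce1a1: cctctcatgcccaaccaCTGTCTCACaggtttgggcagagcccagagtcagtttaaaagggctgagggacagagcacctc
Lce1k: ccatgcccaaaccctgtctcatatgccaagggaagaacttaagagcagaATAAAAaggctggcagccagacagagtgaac
Lce1m: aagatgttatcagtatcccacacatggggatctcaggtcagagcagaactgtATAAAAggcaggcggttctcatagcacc
Lce3c: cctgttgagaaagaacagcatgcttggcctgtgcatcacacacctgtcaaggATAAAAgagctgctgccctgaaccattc
Lor: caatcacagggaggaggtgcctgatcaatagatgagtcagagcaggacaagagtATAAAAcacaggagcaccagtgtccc

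ATAAAA within bases -40 to -20 was present in 19 of the 25 genes, in 12 of 13 Lce1 and 5 of 6 Lce3 promoters, against 1.59% of all 32851 promoters in the table. CTGTCTCAC within the 80 bases was present in 9 of 13 Lce1 promoters and 0 of 6 Lce3 promoters, and in 28 of all 32851 (0.0852%). The 9 are Lce1a1, Lce1b, Lce1a2, Lce1d, Lce1e, Lce1g, Lce1h, Lce1i and Lce1j, so Lce1c, Lce1k, Lce1l and Lce1m lack the exact word. Variants that differ from it at a single base occur in Lce1c (ctgtatcac), Lce1k (ctgtctcat) and Lce1l (gtgtctcac). Over the 250 upstream bases, pairs of Lce1 genes were 46.3% to 85.6% identical, with a median of 62.1%. The highest value belonged to Lce1g and Lce1i, and the neighbours Lce1g, Lce1h and Lce1i were 81.3% to 85.6% identical to each other. These are descriptions of sequence, and binding was not measured.

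Fixed motifs were searched on both strands from 250 bases before to 50 after the start. The motif CCNNAGGC, reported for ZNF750, was present in 3 of the 25 promoters (Prr9, Lce1d and Lce1m), against 24.1% of all promoters. TATAAA was present in 7 of 25, against 13.6%. The AP-1 site TGANTCA was present in 2 of 25 (Lor and Prr9), against 7.81%, and CCAAT in 3 of 25, against 37.4%. The CACCC box, as GGGTGTGG or GGGCGTGG, and the grainyhead site AACNNGTT were present in 0 of 25, against 8.58% and 4.20% of all promoters. The words TATAAA and ATAAAA can overlap. Absence from this window says nothing about the factors themselves or about more distant sites.

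All 14 Lce1 genes had lower means in the Znf750_cKO libraries, and none passed the test. Expression was compared with limma on log2(FPKM + 1), with p-values adjusted by the Benjamini-Hochberg method over 13688 tested genes and 0.05 as the threshold. FPKM is a level per kilobase of transcript, and changes below are Znf750_cKO minus Control on the log2(FPKM + 1) scale, which understates changes of low genes. Over all tested genes 577 were called (4.22%), of which 425 fell (3.1%) and 152 rose (1.11%). Of the 26 tested genes of the set, 0 were called in either direction. An unadjusted limma p under 0.05 with a lower level was found for 16 of the 26, against 15.3% of all tested genes. The median change of the 26 was -0.86 and 24 were negative, against a median of -0.077 and 62.2% negative over all tested genes. The groups did not overlap, with Znf750_cKO lower, for 12 of the 26, against 19.7% of all tested genes. None of the 26 was higher without overlap, against 8.28%.

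These counts are not independent observations, because the genes moved together between libraries of 1 group. After group means were taken off, the 91 pairs of Lce1 genes correlated at a median of 0.955 and at least 0.709, over 6 libraries. Control replicate 2 held the highest value of every Lce1 gene and of 22 of the 26 genes. Znf750_cKO replicate 2 held the lowest value of every Lce1 gene and of 21 of the 26. Znf750_cKO replicate 3 was the highest of its group for all 14 Lce1 genes and for 24 of the 26, and it exceeded Control replicate 3 for 4 Lce1 genes and 12 of the 26. Znf750_cKO replicates 1 and 2 both lay below every Control library for 14 of 14 Lce1 genes and 23 of the 26, against 27.1% of all tested genes. Without Znf750_cKO replicate 3, limma called 5 of the 26 as fallen (Lce1g, Lce1h, Lce1i, Lce1j and Lce1l), against 1.89% of all tested genes. Without replicate 3 of both groups it called 12, against 2.16%. In the Lce1 sum these were the Control and Znf750_cKO libraries nearest to each other, so leaving them out favours calls. Leaving out replicate 1 or replicate 2 of both groups was not run. Without Control replicate 3 the 1 gene called was Prr9, and without Znf750_cKO replicate 2 it was Pglyrp4, against 1.6% and 1.79% of all tested genes that fell in these fits.

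The summed level of the 14 Lce1 genes shows the class as a whole. In Control replicates 1 to 3 it came to 6486, 10782 and 5660 FPKM, and in those of Znf750_cKO to 3571, 3083 and 5179 FPKM. Every Znf750_cKO library lay below every Control library, though Znf750_cKO replicate 3 came close to Control replicate 3. The means were 7642 ± 2750 and 3945 ± 1097 FPKM (SD, n = 3 libraries each), a difference of -48.4%. The log2 ratio of the means was -0.95, and -0.62 without Control replicate 2. In a bulk library, fewer cells at the last stage of differentiation and less Lce1 RNA in each cell cannot be told apart.

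**Figure D1:**
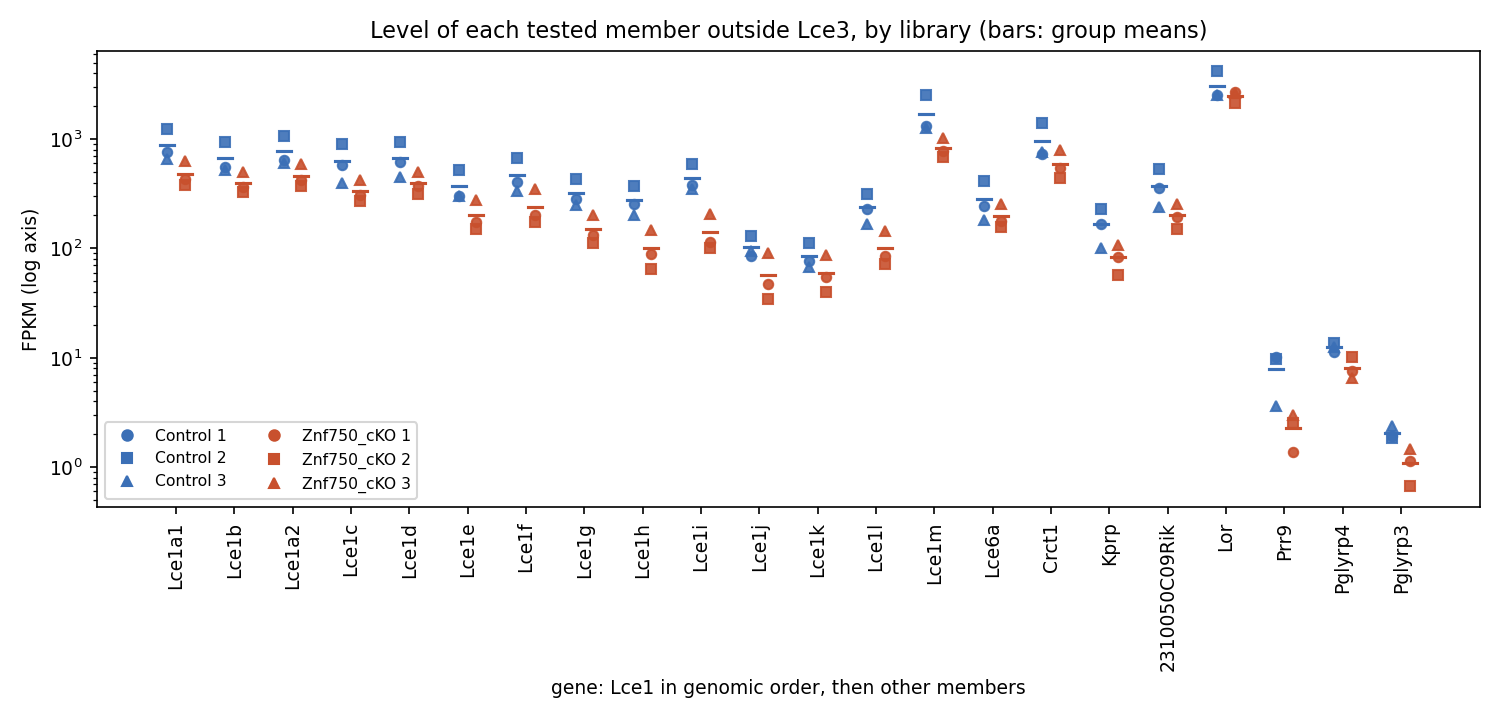
FPKM of the 22 tested genes outside Lce3, on a log axis, with 1 point per library (blue Control, red Znf750_cKO; shape gives the replicate) and bars at group means. The red bar lies below the blue bar for every gene, and Control replicate 2 (blue square) tops every Lce1 gene.

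Lce1m was the most abundant Lce1 gene. It lies apart from the other Lce1 genes, beyond the Lce3 block, at chr3:93017810-93019060 (minus strand, GRCm38, GENCODE M21). It measured 1313, 2527 and 1263 FPKM in Control and 776, 678 and 1030 FPKM in Znf750_cKO libraries. The groups do not overlap, and the spread among Control libraries was wide. Its change was -0.98 (SE 0.30), with an limma adjusted p of 0.14. Next in Control mean were Lce1a1 at 889 ± 311 FPKM and Lce1a2 at 770 ± 260 FPKM, so the order of these 2 lies within their spread. The lowest were Lce1j at 103 ± 22.8 FPKM and Lce1k at 85.3 ± 22.6 FPKM.

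Lce1i is an envelope precursor gene in the middle of the Lce1 block (ENSMUSG00000068888, chr3:92777210-92778899, minus strand). It had the lowest change of the set on the log2(FPKM + 1) scale. Its level was 383, 597 and 353 FPKM in Control and 115, 100.2 and 208 FPKM in Znf750_cKO libraries. The highest Znf750_cKO library was well below the lowest Control library. The means were 444 ± 133 and 141 ± 58.2 FPKM, and the change was -1.68 (SE 0.33, 95% interval -2.50 to -0.86). The limma adjusted p of 0.054 narrowly missed the threshold. Over the alternative settings it ran from 5.75e-09, under the Krt1 and Krt10 scaling described below, to 0.18 without Znf750_cKO replicate 1. Under median-ratio scaling it was 0.042, under quantile normalization 0.048, and under limma without trend or robust variances 0.046, so the call for this gene turns on such settings.

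Lce1h and Lce1g lie next to Lce1i on the chromosome, in that order. Lce1h measured 254, 370 and 204 FPKM in Control and 88.4, 64.8 and 148 FPKM in Znf750_cKO libraries. Its change was -1.49 (SE 0.36, limma adjusted p = 0.092). Lce1g measured 280, 433 and 251 FPKM in Control and 134, 113 and 202 FPKM in Znf750_cKO libraries. Both genes show groups that do not overlap, with Znf750_cKO replicate 3 nearest to Control. The change of Lce1g was -1.10 (SE 0.28, limma adjusted p = 0.090). Lce1l, on the other side of Kprp, averaged 237 ± 75.2 FPKM in Control and 100.4 ± 38.0 FPKM in Znf750_cKO libraries, a change of -1.24 (SE 0.34, limma adjusted p = 0.11).

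The other 9 Lce1 genes had changes between -0.97 (Lce1f) and -0.54 (Lce1k), with limma adjusted p from 0.16 to 0.41. Lce1k had the smallest difference of the class. It measured 77.1, 110.9 and 68.0 FPKM in Control and 54.7, 39.7 and 86.2 FPKM in Znf750_cKO libraries, so the groups overlap through replicate 3. Over the 14 genes, the change had a Spearman rho of -0.50 with order along the chromosome and of 0.24 with the Control level. Both are descriptions over genes that share libraries.

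The make-up of the Lce1 sum also differed between groups, a comparison within each library that no scaling of libraries can alter. Lce1i made up 5.90%, 5.54% and 6.23% of the sum in Control and 3.23%, 3.25% and 4.01% in Znf750_cKO libraries. Lce1h made up 3.65 ± 0.25% in Control and 2.48 ± 0.38% in Znf750_cKO libraries. The shares of Lce1g, Lce1h, Lce1i and Lce1l were lower in every Znf750_cKO than in every Control library. Those of Lce1a1, Lce1a2, Lce1b, Lce1d and Lce1k were higher in every Znf750_cKO library, and the other 5 overlapped. Shares of 1 sum depend on each other, since a lower share of some genes raises the rest. With 3 libraries against 3, a two-sided exact permutation test cannot give a p under 0.1, which is the value for each of these 9 shares. Adjusted over the 14 shares by the Benjamini-Hochberg method, the permutation p is 0.16 for each of the 9. The permutation test exchanges libraries freely, and if replicate numbers are taken as pairs, an exact test that flips signs over 3 pairs cannot go below 0.25.

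**Figure D2:**
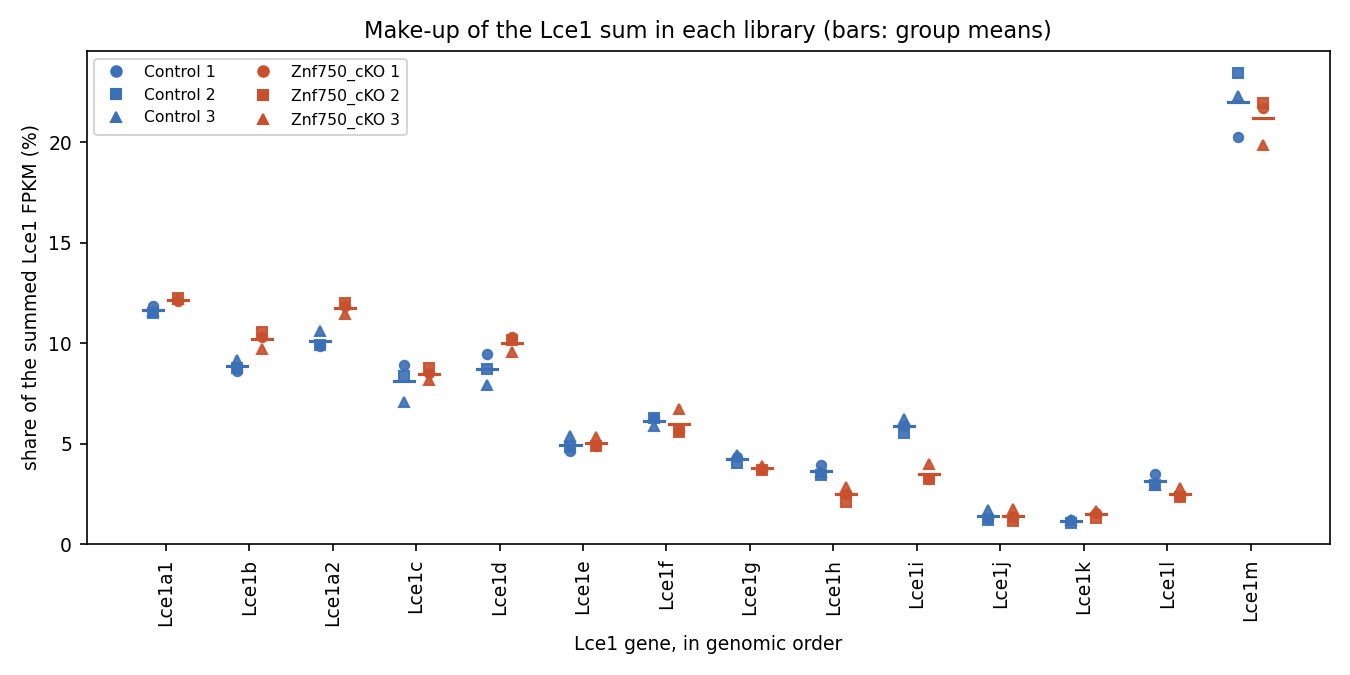
Share of the summed Lce1 FPKM taken by each of the 14 genes (percent) in each library (blue Control, red Znf750_cKO; shape gives the replicate), in genomic order, with bars at group means. Lce1i shows the widest gap, with Control at 5.54% to 6.23% and Znf750_cKO at 3.23% to 4.01%.

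The shares are set beside the upstream sequences as a description, and a link between them was not tested. Lce1g, Lce1h and Lce1i, the 3 neighbours with the most alike upstream bases, all had lower shares. Lce1e, whose upstream bases were 79.1% identical to those of Lce1h and 76.4% to those of Lce1i, held 4.95 ± 0.37% in Control and 5.04 ± 0.27% in Znf750_cKO libraries. The 9 genes with CTGTCTCAC had changes from -1.68 to -0.72. Lce1c, Lce1k, Lce1l and Lce1m, which lack the exact word, had changes of -0.86, -0.54, -1.24 and -0.98. These ranges overlap.

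Sequence shared between transcripts bears on how far single genes can be read, since reads of 100 bases that fit several genes are divided by estimate. Of the 100-base windows of each Lce1 transcript, 0% to 4.90% occurred in another transcript of the annotation, so most reads of these genes can be placed. Coding sequences of Lce1 genes were 43.4% to 95.7% identical, with Lce1m the least like the others. The Lce3 genes are much closer, at 94.6% to 99.3% identity. From 24.1% (Lce3c) to 43.0% (Lce3f) of the windows of Lce3c, Lce3d, Lce3e and Lce3f occurred in another transcript, so their single levels are less certain. Lce6a and the 9 neighbours shared 0% of windows. Lce3c and Lce3d, 98.0% identical over their whole coding sequence, were nonetheless listed at quite different levels.

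The Lce3 genes, known in human skin for their rise in psoriasis and after barrier injury, were far less abundant than Lce1 and showed no common direction. Their sum was 29.3, 68.7 and 41.4 FPKM in Control and 21.3, 12.5 and 57.2 FPKM in Znf750_cKO libraries. The groups overlap, with Znf750_cKO replicate 3 above Control replicates 1 and 3. The log2 ratio of the means was -0.61, but -1.46 without Znf750_cKO replicate 3, -0.22 without Control replicate 2 and -0.24 without Znf750_cKO replicate 2. Of the 6 genes 4 were tested, of which 0 were called, 0 had an unadjusted limma p under 0.05 and 2 were negative.

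Lce3c dominated the class. It measured 23.5, 48.4 and 31.6 FPKM in Control and 11.6, 6.60 and 31.5 FPKM in Znf750_cKO libraries. Replicates 1 and 2 of Znf750_cKO were below every Control library, and replicate 3 was level with Control replicate 3. Its change was -1.22 (SE 0.62, limma adjusted p = 0.35). Lce3d measured 1.57, 3.24 and 3.17 FPKM in Control and 5.23, 1.78 and 12.1 FPKM in Znf750_cKO libraries. Its highest value, in Znf750_cKO replicate 3, and its overlap with Control gave a change of 0.77 (SE 0.60, limma adjusted p = 0.53).

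Lce3e averaged 7.62 ± 5.41 FPKM in Control and 3.89 ± 2.66 FPKM in Znf750_cKO libraries, with a change of -0.78 (SE 0.57). Lce3f measured 0.41, 2.91 and 1.14 FPKM in Control and 1.35, 1.10 and 4.69 FPKM in Znf750_cKO libraries, with a change of 0.42 (SE 0.52) that became -0.035 without Znf750_cKO replicate 3. The groups overlap for both genes. The Control libraries listed Lce3a at 0, 0.31 and 0.09 FPKM, the Znf750_cKO libraries at 0.82, 0.08 and 1.16 FPKM. For Lce3b the listings were 0.15, 0 and 0 FPKM against 0.37, 0.08 and 0.85 FPKM. Both were too low to test, and their highest values lay in Znf750_cKO replicates 3 and 1.

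**Figure D3:**
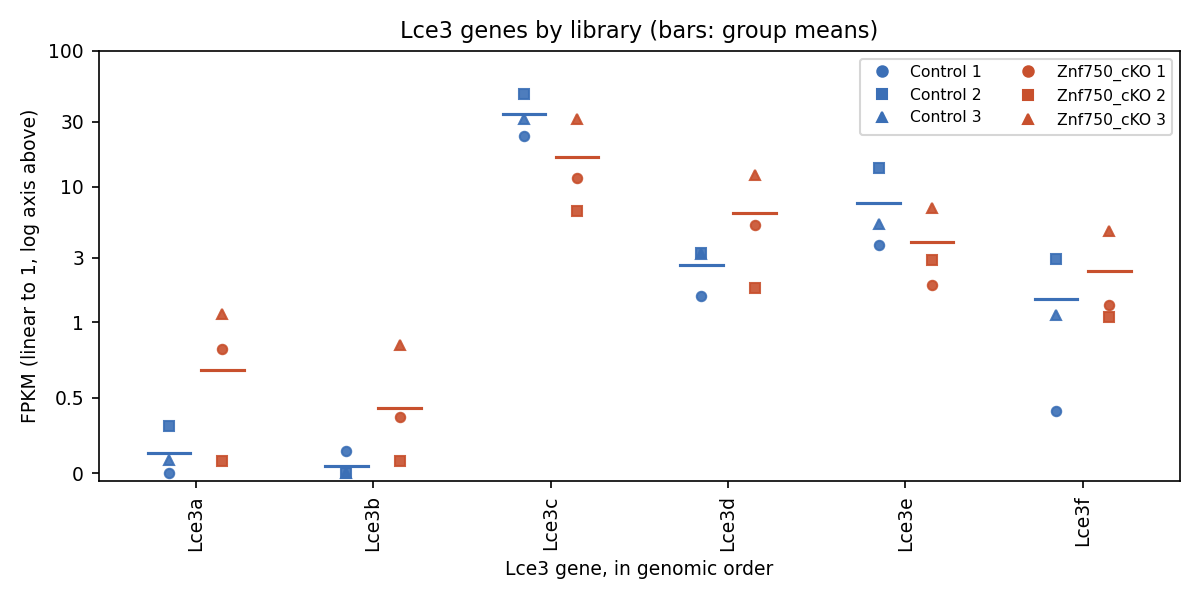
FPKM of the 6 Lce3 genes in each library (blue Control, red Znf750_cKO; shape gives the replicate), linear up to 1 FPKM and logarithmic above, with bars at group means. The groups overlap for all 6 genes, and Znf750_cKO replicate 3 (red triangle) is the highest of its group for each.

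Lce6a, a single gene at the start of the Lce block that differs in sequence from Lce1 and Lce3, overlapped between groups. It measured 244, 415 and 182 FPKM in Control and 176, 157 and 256 FPKM in Znf750_cKO libraries. Its change was -0.46 (SE 0.34, limma adjusted p = 0.51). Against the Lce1 sum of the same library, however, it was higher in every Znf750_cKO library. Per 1000 FPKM of Lce1 it came to 37.6, 38.5 and 32.1 FPKM in Control and to 49.3, 51.0 and 49.4 FPKM in Znf750_cKO libraries. The groups are well apart on this ratio, and the two-sided exact permutation p of 0.1 is the smallest 3 against 3 can give. The Lce1 sum was itself lower in every Znf750_cKO library, so a gene that differed less is raised on this ratio. It is therefore no sign of a gain in Lce6a, whose own mean was lower.

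Loricrin, the main structural protein of the mouse envelope, had the highest mean of the set in both groups. Lor measured 2503, 4143 and 2528 FPKM in Control and 2704, 2134 and 2618 FPKM in Znf750_cKO libraries. The groups overlap, and 2 Znf750_cKO libraries lay above 2 Control libraries. Its change was -0.26 (SE 0.21, 95% interval -0.75 to 0.22, limma adjusted p = 0.53), so a modest difference in either direction is within the interval.

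The ratio of the Lce1 sum to Lor was 2.59, 2.60 and 2.24 in Control and 1.32, 1.44 and 1.98 in Znf750_cKO libraries. The libraries of the groups do not overlap on it, and the Control libraries, which differ widely in both levels, agree closely in their ratio. The means differ by -36.2%, with a two-sided exact permutation p of 0.1, the smallest possible. Per 100 FPKM of Krt1 and Krt10, the keratins of the spinous layers, the Lce1 sum was 47.7, 52.2 and 31.1 FPKM in Control and 17.8, 12.1 and 33.0 FPKM in Znf750_cKO libraries, which overlap through replicate 3. The Krt1 and Krt10 sum itself was 17490 ± 3585 FPKM in Control and 20446 ± 4914 FPKM in Znf750_cKO libraries, highest in Znf750_cKO replicate 2, where the Lce1 genes were lowest. When every library was scaled to an equal Krt1 and Krt10 sum, 18 of the 26 genes were called as fallen, against 3.04% of all tested genes. The median change of all tested genes moved to -0.27. Such scaling carries the spread of the Krt1 and Krt10 sum into every gene. The p-values of that fit therefore rest in part on a shared spread and not only on each gene's own.

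**Figure D4:**
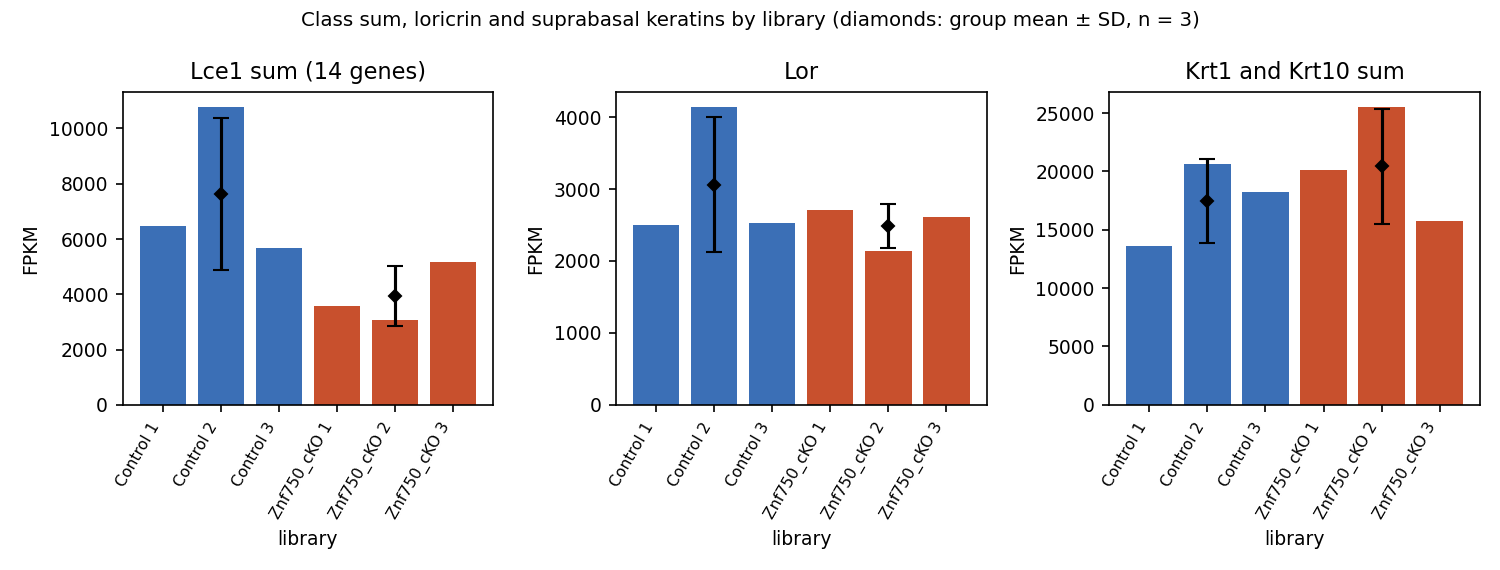
FPKM of the Lce1 sum (14 genes), of Lor and of the Krt1 and Krt10 sum in each library (bars; blue Control, red Znf750_cKO), with diamonds and lines for the group mean ± SD (n = 3). The 3 red bars of Lce1 (3083 to 5179 FPKM) lie below the 3 blue ones (5660 to 10782 FPKM), while both other panels overlap.

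Among the genes set inside the Lce block, Crct1, which encodes a small cysteine-rich protein, measured 728, 1408 and 767 FPKM in Control and 546, 438 and 795 FPKM in Znf750_cKO libraries. The groups overlap, with a change of -0.68 (SE 0.33, limma adjusted p = 0.31). Per 1000 FPKM of Lce1 it was 112, 131 and 135 FPKM in Control and 153, 142 and 153 FPKM in Znf750_cKO libraries, higher in each of the latter. Here too the divisor, the Lce1 sum, was lower in every Znf750_cKO library. Kprp, keratinocyte proline-rich protein, averaged 166 ± 65.4 FPKM in Control and 82.8 ± 25.3 FPKM in Znf750_cKO libraries, a change of -0.96 (SE 0.38, limma adjusted p = 0.22). 2310050C09Rik, an uncharacterised gene beside Lce1l, averaged 375 ± 146 FPKM in Control and 200.3 ± 53.4 FPKM in Znf750_cKO libraries, a change of -0.86 (SE 0.34, limma adjusted p = 0.22). For both, the groups overlap, and the level per 1000 FPKM of Lce1 was similar between groups, at 21.7 ± 4.01 and 20.9 ± 2.44 for Kprp and 48.8 ± 6.78 and 50.9 ± 3.18 for 2310050C09Rik.

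Outside the Lce block, Prr9, a small proline-rich gene beside Lor, had a change between those of Lce1h and Lce1l. It measured 10.3, 9.83 and 3.63 FPKM in Control and 1.38, 2.51 and 3.01 FPKM in Znf750_cKO libraries. The groups do not overlap, but Control replicate 3 lay near the Znf750_cKO libraries. Its change was -1.36 (SE 0.39, limma adjusted p = 0.11), and -1.78 with an limma adjusted p of 0.023 without Control replicate 3. By group means Prr9 differed by -70.9%, more than Lce1i at -68.2%, as the log2(FPKM + 1) scale understates changes of low genes.

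The peptidoglycan recognition proteins Pglyrp3 and Pglyrp4 are secreted proteins that bind and kill bacteria, and both were low. Pglyrp4 measured 11.2, 13.7 and 12.6 FPKM in Control and 7.56, 10.2 and 6.50 FPKM in Znf750_cKO libraries. The groups do not overlap, and replicate 3 was the lowest Znf750_cKO library here, unlike in the Lce1 genes. Its change was -0.59 (SE 0.17, limma adjusted p = 0.099). Pglyrp3 measured 1.92, 1.85 and 2.38 FPKM in Control and 1.15, 0.67 and 1.47 FPKM in Znf750_cKO libraries, a change of -0.56 (SE 0.20, limma adjusted p = 0.16) with no overlap.

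Lelp1 was listed at 0.06 FPKM in Control replicate 2 and at 0 in the other 5 libraries. Smcp, which encodes a protein of the sperm mitochondrial capsule, was at or below 0.22 FPKM in every library. Neither was tested. The 4 spermatid markers summed to at most 0.64 FPKM in any library.

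Along the chromosome, the 26 tested genes of the set lay among 66 tested genes between S100a1 and S100a10, a stretch of 3.05 Mb. The run from Lce6a to 2310050C09Rik holds 17 tested genes, of which 16 were negative. Those 16 are all in the set, and the exception, Gm4202, stood at 1.17 ± 0.77 and 1.21 ± 0.28 FPKM with a change of 0.076. Lce3c, the next tested gene, was negative too (-1.22), and Lce3d after it was positive (0.77). Lce3e was negative and Lce3f positive, so signs were mixed within Lce3, and Crct1 and Lce1m beyond were negative again. The 40 other tested genes of the complex had a median change of 0.15, and 15 of them were negative.

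**Figure D5:**
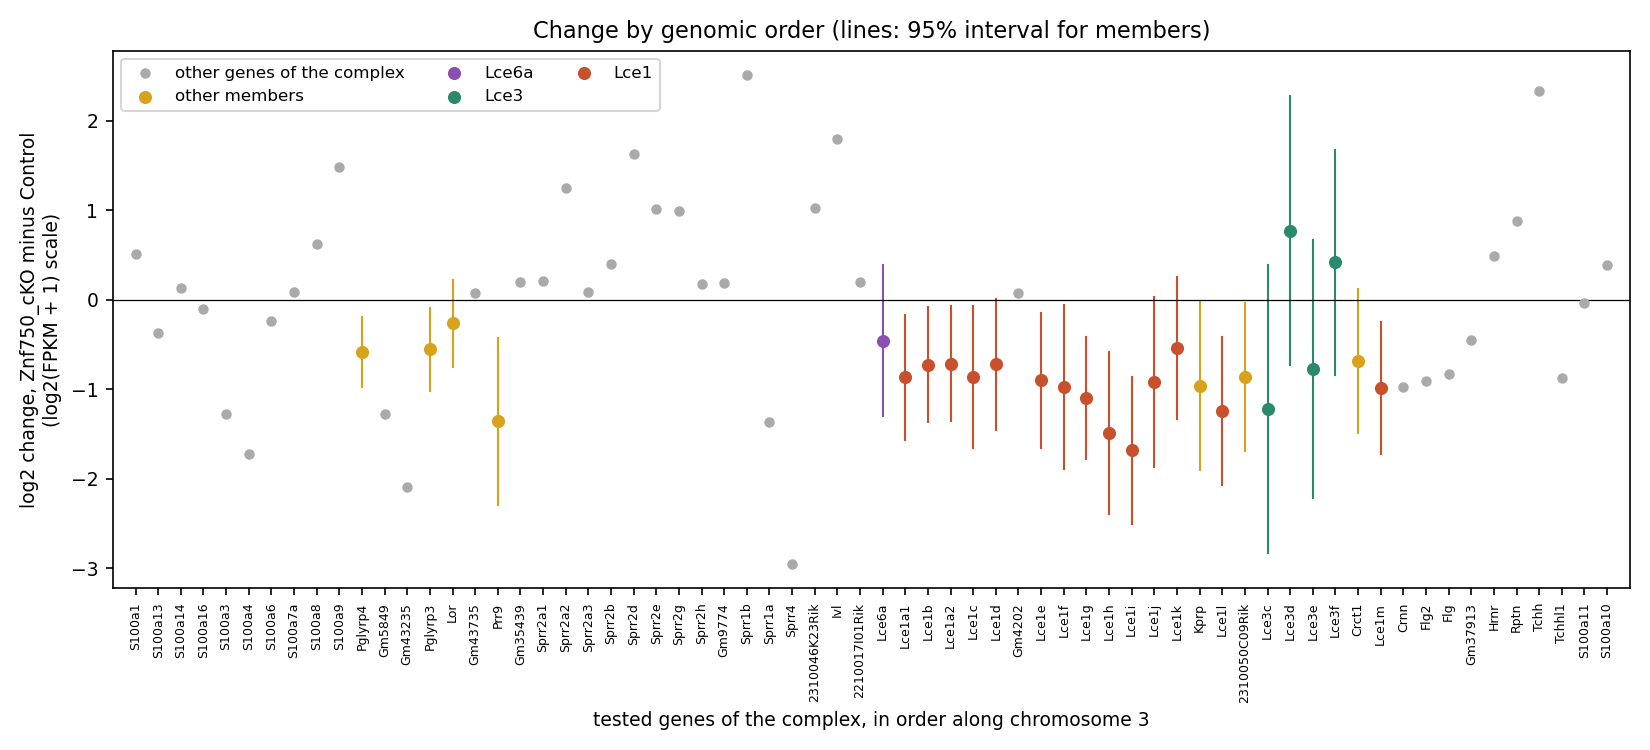
Change (Znf750_cKO minus Control, log2(FPKM + 1) scale) of the 66 tested genes of the complex in genomic order, with 95% intervals for the genes of the set. The run from Lce6a to 2310050C09Rik lies below 0 apart from Gm4202 at 0.076, while genes on both sides of it lie on either side of 0.

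Among those 40 neighbours, 5 rose (S100a9, Sprr2d, Sprr1b, Ivl and Tchh) and 5 fell (S100a4, Gm5849, Gm43235, Sprr4 and Crnn). Gm43235, Sprr4 and Crnn passed the filter of 1 FPKM through the Control libraries alone. Over all tested genes 1.11% rose and 3.1% fell, and the counts of the lists and markers below stand beside the same shares. Of the 12 tested small proline-rich genes and Ivl, earlier precursors of the envelope, 3 rose and 1 fell, with a median change of 0.70. Sprr1b rose from 25.8 ± 5.52 to 151 ± 32.3 FPKM, a change of 2.51 (SE 0.20, limma adjusted p = 0.0021). Sprr4 fell from 7.56 ± 4.48 FPKM to a listing of 0 in all Znf750_cKO libraries (limma adjusted p = 0.012). Sprr2a2, the most abundant of the list, stood at 177 ± 35.1 and 463 ± 278 FPKM (limma adjusted p = 0.19).

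Of the 7 fused S100 genes, which encode large proteins such as filaggrin, 1 rose and 1 fell, with a median change of -0.83. Tchh (trichohyalin) rose from 14.2 ± 1.93 to 80.2 ± 33.4 FPKM, a change of 2.33 (limma adjusted p = 0.027). Crnn (cornulin) fell from 1.52 ± 0.37 to 0.27 ± 0.092 FPKM (limma adjusted p = 0.035). Flg, the filaggrin gene, stood at 1656 ± 565 and 903 ± 135 FPKM, a change of -0.83 close to that of the Lce1 genes (limma adjusted p = 0.10).

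Of 11 genes for envelope assembly and late processing, 0 rose and 2 fell, with a median change of -0.24. Casp14, a caspase that takes part in filaggrin processing, fell from 127 ± 34.9 to 50.5 ± 9.60 FPKM, a change of -1.29 (SE 0.22, limma adjusted p = 0.025). Scel, encoding sciellin, also fell (limma adjusted p = 0.042). Csta1, the most abundant of them, stood at 353 ± 133 and 283 ± 26.2 FPKM (limma adjusted p = 0.70).

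Of 17 regulators of late differentiation, 2 rose (Grhl3 and Maf) and 1 fell, which was Zfp750 itself, with a median change of 0.082. Grhl3, a grainyhead factor of barrier formation, rose from 19.5 ± 0.81 to 36.3 ± 3.95 FPKM (limma adjusted p = 0.0087). Klf4, a barrier factor that ZNF750 acts with, stood at 169 ± 26.1 and 247 ± 7.60 FPKM, a change of 0.55 (limma adjusted p = 0.054). Of 7 suprabasal and basal keratins, 1 rose (Krt2) and 0 fell. Krt10, the most abundant of them, stood at 9563 ± 2000 and 11485 ± 2981 FPKM (limma adjusted p = 0.58). Krt2, a keratin of the upper epidermis, rose from 0.26 ± 0.055 to 256 ± 81.3 FPKM (limma adjusted p = 1.36e-05). It passed the filter of 1 FPKM through the Znf750_cKO libraries alone.

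Markers of other cells also differed between the groups. All 3 tested leukocyte markers of 6 fell, and the 6 summed to 48.6 to 78.3 FPKM in Control and 7.08 to 10.3 FPKM in Znf750_cKO libraries. Of 3 tested inner root sheath keratins of 4, 2 fell, and the 4 summed to 10.1 to 27.3 and 1.57 to 2.77 FPKM. The 3 tested keratins passed the filter of 1 FPKM through the Control libraries alone, where they were higher. Of 3 tested red cell genes of 5, 1 fell, and of the 3 simple epithelial keratins, 2 rose (sum 5.18 to 6.68 and 206 to 289 FPKM). Krt8 made up nearly all of that sum in Znf750_cKO libraries, with a mean of 241 FPKM. Krt18, which also rose, averaged 3.71 FPKM there, and Krt19, which was not called, 2.09 FPKM. None of the tested melanocyte (6), fibroblast (3), endothelial (1) and Merkel cell (1) markers was called, and no muscle marker was tested. Their part in the lower Lce1 levels was not tested.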

How the data were processed

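The deposited tables hold FPKM for 55487 Ensembl genes in each of 6 libraries, 1 value per gene, per the file headers. Per the labels' protocols, epidermis was separated with dispase and trypsin, poly(A) RNA was selected, and single reads of 100 nucleotides were sequenced. The submitters' processing notes name RSEM 1.2.28 and STAR 2.5.2a, beside cutadapt 1.15, Trim Galore 0.4.5, MultiQC 1.0 and FastQC 0.11.8, with builds mm10 and GRCm38, and DESeq2, all without a role. The annotation release is not given in the sources used. RSEM divides ambiguous reads by estimate. Read depth is unknown from FPKM. The libraries' FPKM sums were 703726 to 770835, with 24045 to 29087 genes above 0, and no library was left out.

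The 13688 genes that reached 1 FPKM in 3 or more libraries were compared with limma 3.58.1 (R 4.3.3, statmod 1.5.0; intensity trend, robust variances), on log2(FPKM + 1) and with no covariate besides group. Benjamini-Hochberg adjusted p under 0.05 was called. The procedure was run on simulated data with errors drawn independently for each gene, so that run does not cover genes that move together. Errors are SDs over 3 libraries. Symbols matched 55141 of the identifiers. Coordinates are from GENCODE M21 on GRCm38, promoters from RefSeq on GRCm38.p6. Of 25 promoters, 20 begin at a GENCODE start. Identities are from global alignments (Biopython 1.88). The genes of the set and all lists were chosen with earlier results of these data known. All 30 genes of the set were to be named, and from each pathway list the most abundant gene and the called gene with the smallest p in each direction; Scel, Maf, Gm5849, Gm43235 and the other called genes of the complex were added after their values were seen. Alternatives covered the pseudocount, the filter, 4 scalings, the variance model, a replicate block and leaving out libraries. Libraries with the same replicate number correlated across genes, after group means were taken off, at 0.31, 0.17 and 0.48 for numbers 1, 2 and 3. These values are above the limit of 0.1 for treating numbers as pairs. Control replicate 1 and Znf750_cKO replicate 2 also exceeded it, at 0.24, which is above the value for number 2. All other pairs of different numbers had negative correlations. The labels leave the meaning of the numbers unstated, so the pairing is an inference from the values.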

Additional observations from a re-analysis of the deposited data

How the results depend on the processing

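The count of genes of the set that fell was 0 in the fit reported, 1 under median-ratio scaling, quantile normalization and limma without trend or robust variances (Lce1i each time), 18 under Krt1 and Krt10 scaling, 12 without replicate 3 of both groups, and 0 to 5 when single libraries were left out. Only replicate 3 was left out of both groups at once, and the Krt1 and Krt10 scaling carries the spread of that sum into every gene. No alternative called a gene of the set as risen. The replicate block gave 392 called genes (256 fell, 136 rose) and 0 of the set, and changed no call in the set. Over all genes, 577 calls became 85 without the filter and 100 to 356 when 1 library was left out. Median-ratio scaling split the calls into 265 fell and 248 rose, and quantile normalization into 218 and 201, against 425 and 152. The set's median change stayed negative throughout and was -1.31 without replicate 3 of both groups, where the log2 ratio of the Lce3 sum was -1.54, against -0.61. That ratio ran from -1.46 (without Znf750_cKO replicate 3) to -0.22 (without Control replicate 2) when single libraries were left out. Lce3f, at 0.42, ran from -0.035 (without Znf750_cKO replicate 3) to 0.81 when single libraries were left out and was -0.080 without replicate 3 of both groups. The cause of these differences was not tested. Read depth is unknown, so precision rests on the 3 libraries a group.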

Other observations

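Between Pglyrp4 and Pglyrp3, 2 genes without a known role, Gm5849 (chr3:90775946-90777876, minus strand, GRCm38) and Gm43235 (chr3:90846372-90848254, minus strand), both fell. Gm5849 went from 7.80 ± 2.93 to 2.53 ± 0.57 FPKM, a change of -1.28 (SE 0.24, limma adjusted p = 0.031). Gm43235 went from 5.40 ± 3.96 to 0.36 ± 0.34 FPKM, a change of -2.09 (SE 0.43, limma adjusted p = 0.049, close to the threshold). It passed the filter of 1 FPKM through the Control libraries alone. Gm5849 and Gm43235 share none of their 100-base windows (0%). Pglyrp4 and Pglyrp3, the nearest tested genes on either side, had changes of -0.59 and -0.56 and were not called. Pglyrp3 lies far off, starting at chr3:92014583.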
